A study of Mus musculus with 2 samples.

Results

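Transcripts of the γδ T-cell receptor (TCR) were measured through the constant genes of its chains, Trdc for the δ chain and Tcrg-C1, Tcrg-C2 and Tcrg-C4 for the γ chain, together with Sox13, a gene of the γδ lineage. These 5 genes were chosen by symbol and not by a rule on their values, though with earlier results of these data known. They are 5 of 48321 gene symbols in the count tables. The samples were sorted CD4- mature thymocytes of MHC-II0:CD8ab Tg mice on the C57Bl/6 background, in 1 group of 2 replicates. Both replicates lacked MHC class II through I-Ab deficiency, carried Cd8a and Cd8b1 genes that had lost coding regions and make no CD8 chains, and made CD8α and CD8β from cDNAs in the Rosa26 locus after a stop cassette had been excised by a Cre under Cd4 control, so only cells that had once expressed this Cre, or their progeny, could make the transgenic CD8 chains. Per the study's methods, mature thymocytes were gated as CD24 low and TCRβ high. The labels differ on the population, since the titles give CD4-CD8- mature thymocytes and the cell type field gives CD8+ mature thymocytes. Age, sex and the number of mice behind each library are not given in the sources used here, and wild-type cells were not analysed here.

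T cells carry either an αβ or a γδ TCR, and the constant genes encode the part of each chain that joins the rearranged variable domain to the membrane. The δ genes lie inside the α locus, between the Vα and the Jα segments, so that joining a Vα to a Jα segment deletes Trdc from that chromosome. The γ locus is built of clusters that each end in a constant gene, and many αβ T cells also carry rearranged γ genes. Sox13 encodes a SoxD-group HMG-box transcription factor found in γδ precursors of the thymus.

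The constant genes of the γ locus are close copies of each other, which bears on what a short read can be assigned to. Exon 1, which encodes the constant domain, holds 330 bases in each copy. Over these bases Tcrg-C1 and Tcrg-C2 are 97.3% identical, with 9 differences and a longest identical run of 71 bases, whereas Tcrg-C1 and Tcrg-C4 are 82.1% identical, with 59 differences. The same 60 coding bases of exon 1, positions 50 to 109 counted from its 5′ end, are printed from GENCODE M21 (GRCm38, the build called mm10) to show this, with capitals at the bases that differ from Tcrg-C1. They lie at chr13:19214152-19214211 on the plus strand for Tcrg-C1, at chr13:19307443-19307502 on the minus strand for Tcrg-C2 and at chr13:19344607-19344666 on the plus strand for Tcrg-C4.
Tcrg-C1 exon 1: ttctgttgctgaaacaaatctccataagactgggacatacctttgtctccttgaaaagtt
Tcrg-C2 exon 1: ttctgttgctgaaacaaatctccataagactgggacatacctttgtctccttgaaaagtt
Tcrg-C4 exon 1: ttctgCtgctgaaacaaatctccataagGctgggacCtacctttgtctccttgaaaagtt
A read of 50 bases from this stretch matches Tcrg-C1 and Tcrg-C2 equally well and differs from Tcrg-C4 at up to 3 bases.

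The connecting exons, which encode the piece between the constant domain and the membrane, differ more between the copies and are printed because they tell the chains apart. Capitals mark the 15 bases of the Tcrg-C1 exon that the Tcrg-C2 exon lacks. The exons are at chr13:19215864-19215908 (plus strand), chr13:19305769-19305798 (minus strand), chr13:19349536-19349589 (plus strand) and, for Trdc, chr14:54143771-54143836 (plus strand).
Tcrg-C1 exon 2: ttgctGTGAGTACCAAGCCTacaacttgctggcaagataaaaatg
Tcrg-C2 exon 2: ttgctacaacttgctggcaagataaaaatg
Tcrg-C4 exon 2: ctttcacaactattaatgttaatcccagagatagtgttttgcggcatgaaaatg
Trdc exon 2: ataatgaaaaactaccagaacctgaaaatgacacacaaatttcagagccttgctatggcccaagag
Tcrg-C2 has the shortest of these exons at 30 bases, Tcrg-C1 has 45, Tcrg-C4 has 54 followed by a further connecting exon of 45, and Trdc has 66.
Of all 50-base windows in the annotated transcripts of each gene, 34.2% in Tcrg-C1 and 25.4% in Tcrg-C2 also occur in another gene, against 5.92% in Trdc and 0% in Tcrg-C4 and Sox13. Alignments that were not unique were summed apart from the genes. Counts of Tcrg-C1 and Tcrg-C2 can therefore miss reads, and are uncertain. No such window was found in Tcrg-C4. Only exact matches among annotated transcripts were searched, so near matches and copies elsewhere in the genome are not covered.

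The libraries held 16732644 and 16245849 reads on genes in replicates 1 and 2, at which 3 reads, the limit that a count of 0 allows, correspond to 0.179 and 0.185 counts per 1000000 reads on genes (CPM). They stood apart in genes of the sex chromosomes, with Xist at 2.03 and 1555 CPM and Ddx3y at 146 CPM and 0, so the sex of the mice and the replicate cannot be told apart. Levels of T-cell genes were high, as in the TCRβ constant gene Trbc2 at 257 and 265 CPM, and Cd4 was at 0.717 and 1.66 CPM. The B-cell list summed to 13.5 and 15.2 CPM over 5 genes, most of it Cd79b at 11.7 and 14.0, with Pax5 at 1 read and 0. The myeloid list summed to 15.0 and 16.2 CPM over 5 genes, most of it Csf1r at 9.74 and 11.8, followed by Cd68 at 3.05 and 2.89 and Itgam at 2.03 and 1.11, with Lyz2 at 0 and 2 reads. The erythroid list summed to 0.478 and 0.616 CPM over 5 genes with all 4 globin genes at 0. The stromal and epithelial list summed to 3.35 and 4.49 CPM over 6 genes. Most of it was Epcam at 2.99 and 3.26, with Krt5 at 1 read in each library and Foxn1 at 1 read and 0. The part of such cells in the levels that follow was not tested.

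All 5 genes were detected in both libraries, and transcripts of the γ chain were more abundant than those of the δ chain. Tcrg-C4 had 353 and 331 reads and Tcrg-C2 had 342 and 285 reads in replicates 1 and 2, the highest counts of the 5. Tcrg-C1 had 97 and 78 reads, and Trdc had 89 and 116. Sox13 had 20 and 17 reads, the lowest counts, which were nonetheless above 3 in each library. These bulk levels cannot tell fewer cells of a type from less RNA per cell.

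On the CPM scale, Tcrg-C4 was at 20.7 ± 0.511 (SD, n = 2) and Tcrg-C2 at 19.0 ± 2.05 (SD, n = 2). Trdc was at 6.23 ± 1.29 CPM (SD, n = 2) and Tcrg-C1 at 5.30 ± 0.704 CPM (SD, n = 2), and the ranges of these 2 genes over the libraries overlapped. Sox13 was at 1.12 ± 0.105 CPM (SD, n = 2). Counting error alone gave Wilson 95% intervals of 4.32 to 6.54 and 5.95 to 8.56 CPM for Trdc, and of 0.774 to 1.85 and 0.653 to 1.68 CPM for Sox13, in replicates 1 and 2. The intervals of the 2 libraries overlapped for both genes.

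Levels of different genes were compared per kb of exon, since Trdc has 3865 exon bases and the γ constant genes have 914 to 985. Tcrg-C4, at chr13:19344558-19352756, was at 21.4 and 20.7 CPM per kb, and Tcrg-C2, at chr13:19304649-19307551, was at 22.4 and 19.2 CPM per kb. The ranges of these 2 genes overlapped, and their order could not be told. Tcrg-C1, at chr13:19214103-19217024, was at 6.27 and 5.20 CPM per kb. Trdc, at chr14:54142851-54148868, was at 1.38 and 1.85 CPM per kb, and Sox13, at chr1:133382303-133424377, was at 0.277 and 0.243 CPM per kb. Each of these 3 ranges lay below the one before it without overlap.

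Among the 15358 genes with at least 10 reads and an annotated length, Tcrg-C4 and Tcrg-C2 stood at percentiles 85.3 and 85.1 of the mean level per kb, Tcrg-C1 at 56.8, Trdc at 33.6 and Sox13 at 11.0. The αβ constant genes were near the top of the same order. Trac, for the α chain, was at 446 ± 25.7 CPM per kb, Trbc2 at 377 ± 8.18 and Trbc1 at 149 ± 6.61 (SD, n = 2), at percentiles 99.6, 99.5 and 98.6. Trbc1 and Trbc2 share 40.5% and 44.0% of their windows with each other. Alignments that were not unique were not counted on genes, so their levels per kb of exon can be understated. Per kb of windows found in no other gene Trbc1 was at 270 and Trbc2 at 725 CPM per kb on average.

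**Figure D1:**
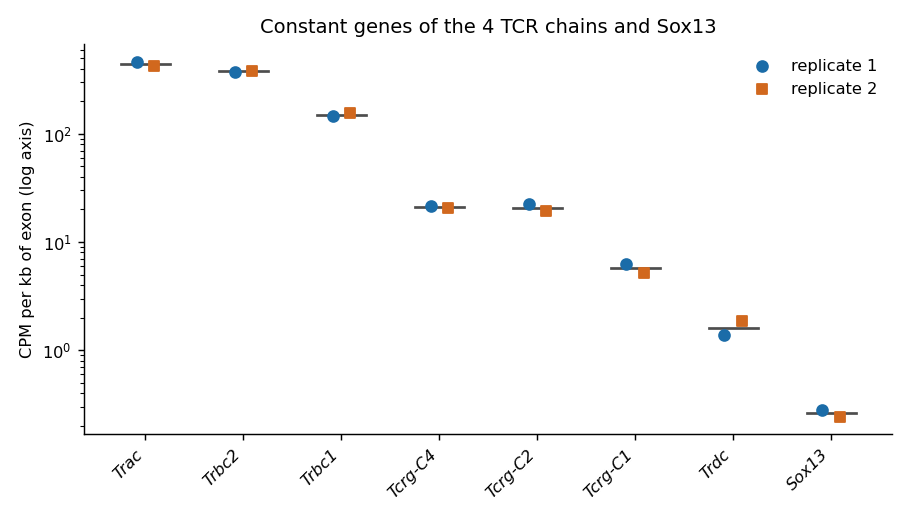
Level per kb of exon (CPM per kb, log axis) of the constant genes of the α, β, γ and δ chains and of Sox13, with a point for each of the 2 libraries and a line at their mean. Trac, Trbc1 and Trbc2 lie at 145 CPM per kb or higher, Tcrg-C4 and Tcrg-C2 overlap between 19.2 and 22.4, and Tcrg-C1, Trdc and Sox13 follow without overlap.

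The ratio of Trdc to Trac, genes of the same stretch of chromosome 14, was 0.00297 in replicate 1 and 0.00432 in replicate 2 per kb of exon, a mean of 0.00364 ± 0.000957 (SD, n = 2). Trac was thus 337 and 232 times Trdc. The sum of Tcrg-C1, Tcrg-C2 and Tcrg-C4 was 36.4 and 24.4 times Trdc per kb in the 2 libraries. Trac was 9.27 and 9.49 times that γ sum. The γ constant genes as a sum were closer in level to the α constant gene than Trdc was, in both libraries.

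These ratios depended on how gene length was counted. Most of the 3865 exon bases of Trdc are 3′ untranslated, and 458 are coding. With the reads of all exons divided by the coding length, Trdc was at 13.6 ± 2.81 and Tcrg-C1 at 10.3 ± 1.37 (SD, n = 2). This order was the opposite of the order per kb of exon. The division keeps reads on untranslated bases, which raises genes such as Trdc, so it does not give the level of coding sequence. With it the ratio of Trdc to Trac was 0.0135 ± 0.00354 (SD, n = 2) and the γ sum was 7.68 and 5.15 times Trdc. Trdc exons also overlap Trdv5 and the antisense transcript Gm43434 on the opposite strand, over 5.36% and 2.48% of their bases, and without a stated strand setting the reads of these genes cannot be told apart.

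**Figure D2:**
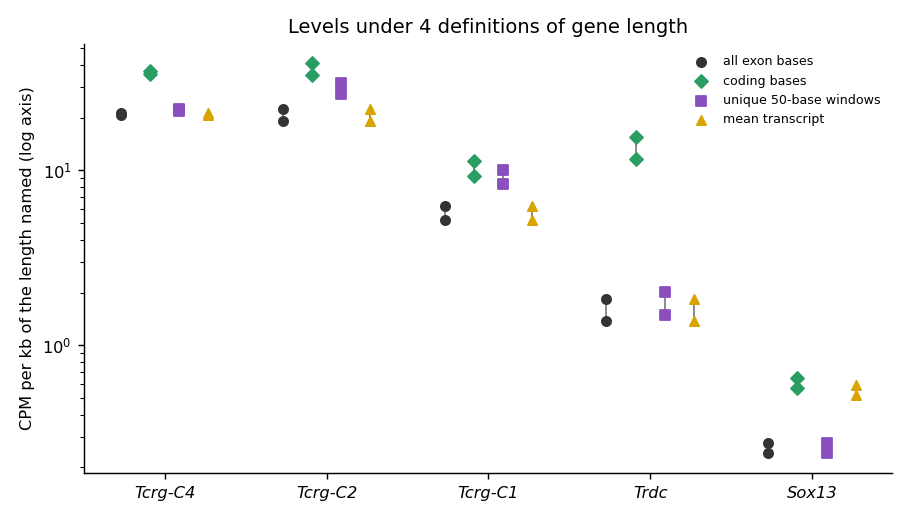
CPM per kb (log axis) of the 5 genes under 4 definitions of length, all exon bases, coding bases, 50-base windows found in no other gene, and the mean annotated transcript, with a point per library joined by a line. Trdc lies below Tcrg-C1 under each definition other than coding bases, where it lies above. The reads of all exons are divided by each length, so the coding value of Trdc also holds reads on untranslated bases.

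Within the γ locus, the reads of the constant genes fell mainly on Tcrg-C4 and Tcrg-C2. Of the 792 and 695 reads on the 4 γ constant genes, Tcrg-C4 took 44.6% (Wilson 95% interval 41.1 to 48.1) and 47.6% (43.9 to 51.3). Tcrg-C2 took 43.2% (39.8 to 46.7) and 41.0% (37.4 to 44.7), and Tcrg-C1 took 12.2% (10.1 to 14.7) and 11.2% (9.09 to 13.8). Tcrg-C3, at the end of the remaining cluster, had 0 reads and 1 read, and 39.5% of its windows occur in another gene. Tcrg-C2 was 3.56 and 3.69 times Tcrg-C1 per kb of exon, and 3.15 and 3.26 times when lengths were restricted to windows found in no other gene.

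The V and J segments of the same locus were counted too, cluster by cluster. Trgv2, the V segment of the cluster that ends in Tcrg-C2, had 182 reads in each library, 71.9% (66.1 to 77.1) and 70.8% (65.0 to 76.0) of the reads on the 6 listed γ V segments. Tcrg-V4, of the cluster that ends in Tcrg-C1, had 47 and 49 reads. The other listed V segments of that cluster, Tcrg-V5, Tcrg-V6 and Tcrg-V7, had 4 to 9 reads each, and Tcrg-V3, of the Tcrg-C3 cluster, had 3 and 4. Tcrg-V1, of the Tcrg-C4 cluster, was not analysed here, so the shares are of the listed segments.

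The J segments joined to Tcrg-C2, Tcrg-C4, Tcrg-C1 and Tcrg-C3 were in the order Trgj2 (29 and 18 reads), Trgj4 (17 and 14), Trgj1 (10 and 9) and Trgj3 (0 in both). With 56 and 41 reads on the J segments in all, the intervals of the shares of Trgj2 and Trgj4 overlapped within each library. The 4 V segments of the Tcrg-C1 cluster summed to 68 and 71 reads beside 97 and 78 on Tcrg-C1 itself, and Trgv2 at 22.2 and 22.8 CPM per kb was near Tcrg-C2 at 22.4 and 19.2. Each cluster from which reads of a J segment were counted thus also had reads of its constant gene.

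**Figure D3:**
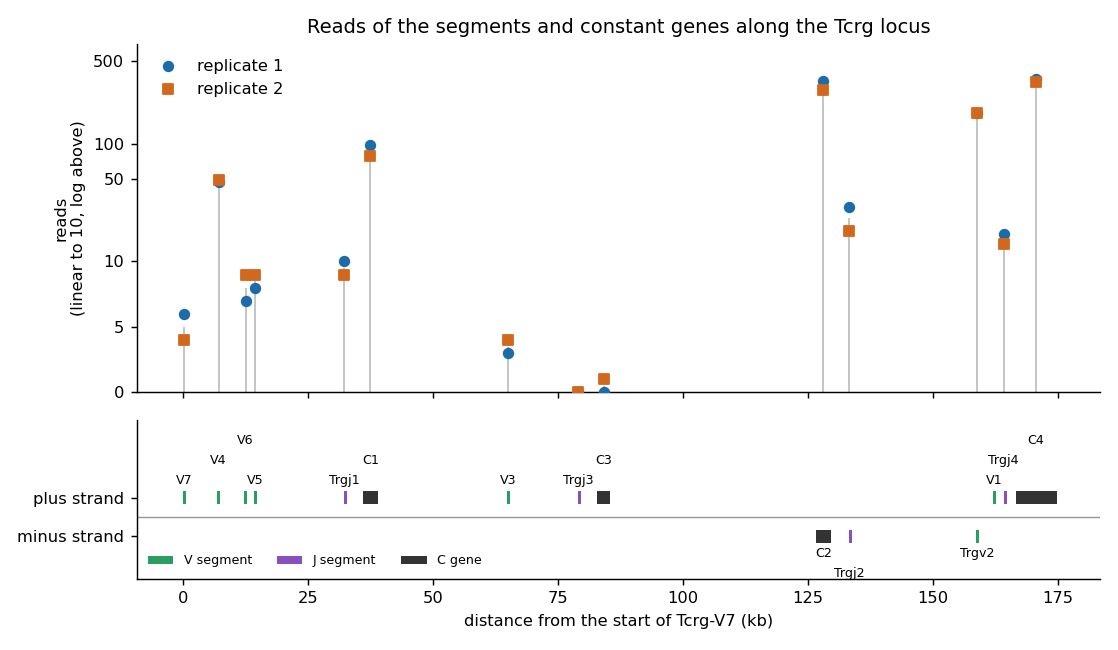
Reads per library (axis linear to 10 and logarithmic above) of each V, J and constant gene along the Tcrg locus, over its distance from the start of Tcrg-V7 in kb and its strand. Tcrg-C2 and Tcrg-C4 have at least 285 reads in both libraries, the Tcrg-C3 cluster has at most 4 reads on any gene, and Tcrg-V1 is drawn without a value.

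The δ segments had few reads. The 6 listed Trdv segments summed to 39 reads in each library, 2.33 and 2.40 CPM, of which Trdv1 had 15 and 14 and Trdv2-2 had 20 and 15. Trdv5 had 3 and 8 reads and Trdv2-1 had 1 and 2, whereas Trdv3 and Trdv4 had 0 in both. Trdv2-1 and Trdv2-2 share 56.6% and 52.6% of their windows with another gene, which makes their counts uncertain. Trdj1 and Trdj2 had 1 or 2 reads, and the D segments, shorter than a read, had 0.

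V segments that both the α and the δ chain can use had more reads than the segments of the δ chain alone. The 10 listed ones summed to 210 and 198 reads, or 12.6 and 12.2 CPM, with Trav14d-3-dv8 highest at 61 and 62 reads. The part of their windows that also occurs in another gene ran from 0% in Trav21-dv12 to 100% in Trav15d-2-dv6d-2, which had 0 reads. It was 38.8% in Trav14d-3-dv8. Their counts, and the order among them, are therefore uncertain. Reads of these segments cannot be assigned to either chain.

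Between the libraries each of the 5 genes differed by less than 2-fold, though the interval of Sox13 reached beyond it. The median size of the difference over all genes tested was 0.17 on the log2 scale, and of the 5 only Tcrg-C4 lay below it. The genes behind this median were not matched to the 5 by number of reads. Counting error alone spreads genes with few reads more, so it does not show that the 5 varied more than other genes. Trdc was higher in replicate 2, by 0.42 on the log2 scale, with an exact 95% interval from counting of 0.01 to 0.84. Tcrg-C1 differed by −0.27 (−0.72 to 0.17), Tcrg-C2 by −0.22 (−0.45 to 0.01), Tcrg-C4 by −0.05 (−0.27 to 0.17) and Sox13 by −0.19 (−1.22 to 0.82). For 15949 genes with at least 10 reads the libraries were compared by an exact binomial test (two-sided, p adjusted by Benjamini and Hochberg over all of them). A gene was called at an adjusted p under 0.05 and a difference of at least 2-fold, and by this rule 0 of the 5 genes were called, beside 1.52% of all genes tested. Without adjustment 1 of the 5, Trdc, had a p under 0.05 by the exact binomial test (p = 0.0363, adjusted p = 0.146). The adjusted p of the exact binomial test was 0.206 for Tcrg-C2, 0.474 for Tcrg-C1, 0.860 for Tcrg-C4 and 0.905 for Sox13. The edgeR exact test with a set biological coefficient of variation of 0.1 called 0 of the 5 as well. This was fixed in advance, because the same differences below 2-fold were used. By that test 0 of the 5 had an unadjusted p under 0.05.

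The median difference of the 5 genes was −0.19 on the log2 scale, against 0.08 over all genes tested. In the lists of other cell types, the collagen gene Col1a1 of the stromal list, with 3 and 16 reads, was the only gene called (adjusted p = 0.0186 by the exact binomial test, higher in replicate 2). This compares 2 libraries and not 2 conditions. The labels do not name the mice behind each library, but Xist and Ddx3y differed as they do between female and male mice, so the libraries did not come from the same mouse or pool and their spread holds differences between mice and technical ones together. Such a p-value from counts covers counting error only, and for that reason Trac, at −0.12 on the log2 scale with 7260 and 6497 reads, had an adjusted p of 4.2e-05 by the exact binomial test without reaching 2-fold.

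**Figure D4:**
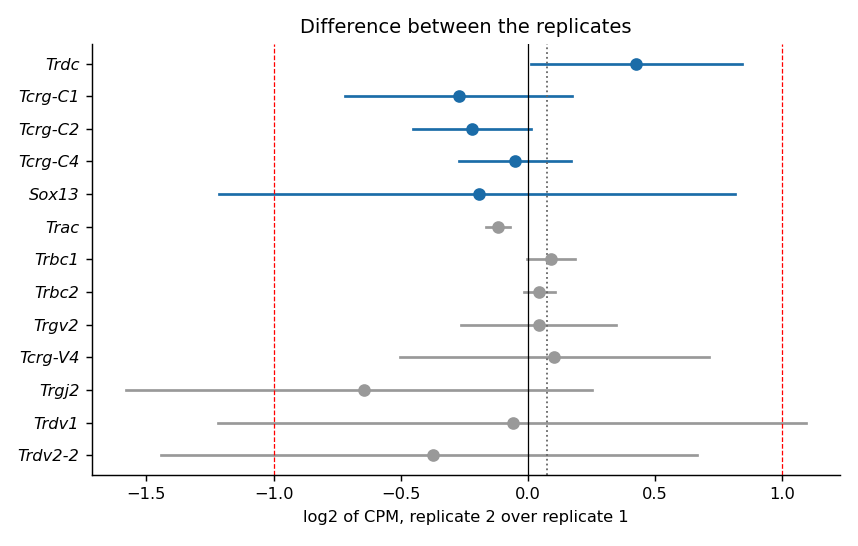
Difference between replicates (log2 of CPM, replicate 2 over replicate 1) of the 5 genes (blue) and other TCR genes (grey), with exact 95% intervals from counting. The dotted line is the median of all genes tested and the dashed lines mark 2-fold; Trdc is the only one of the 5 whose interval lies above 0.

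Sox13 was compared with its family and with other factors of γδ development. Of the SoxD group, Sox5 had 65 and 47 reads, 3.88 and 2.89 CPM, and Sox6 had 2 and 3 reads, at or below 3 in both. Per kb of exon, Sox13 at 0.277 and 0.243 was near Sox5 at 0.270 and 0.201, and the ranges overlapped. This depended on the length used. With the reads of all exons divided by coding bases, Sox5 was at 1.66 and 1.23 and Sox13 at 0.650 and 0.569. Sox5 has 14376 exon bases and 2344 coding bases, so this division raises it more than Sox13. Per kb of mean transcript Sox5 was at 1.5 and 1.12 and Sox13 at 0.592 and 0.518. The ranges did not overlap on either length. Sox4, an HMG-box factor with a role in γδ cells that make IL-17, was at 40.0 and 41.8 CPM, far above Sox13 in both libraries.

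All 12 genes listed as factors of γδ development had at least 10 reads, and their levels spanned a wide range. Tcf7, a factor of all T cells, was highest at 849 and 814 CPM, followed by Lef1 at 219 and 229 and Id2 at 136 and 126. Id3, which acts downstream of γδ TCR signals, was at 56.1 and 72.0 CPM, and Etv5 at 4.84 and 6.03. The factors Egr2 and Egr3, induced by TCR signals, were at 28.5 and 28.9 CPM and at 17.2 and 15.0 CPM. Most of these factors also act in αβ thymocytes. Of the 12, 0 were called between the libraries by the exact binomial test, beside 1.52% of all genes tested, with a median difference of 0.07 on the log2 scale. Among those named here, Id3 (log2 difference 0.36, adjusted p = 4.2e-07) and Tcf7 (−0.06, adjusted p = 0.006) had an adjusted p under 0.05 by that test without reaching 2-fold.

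Genes of γδ cells that make IL-17 were mostly low. Il17a had 0 reads in both libraries, which allows up to 0.179 and 0.185 CPM, and Il17f had 4 and 3 reads. Il23r, a receptor chain for IL-23, had 8 and 7 reads, and Ccr6, a chemokine receptor, had 8 and 11. The kinase gene Blk, which stands in the list of factors too, was at 0.956 and 0.862 CPM.

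The scavenger receptor genes of this list had more reads than its other genes. Cd163l1, for SCART1, was at 8.19 and 8.0 CPM. 5830411N06Rik, for SCART2, was at 41.1 and 55.6 CPM, a log2 difference of 0.44 between the libraries (adjusted p = 8.6e-08 by the exact binomial test) that did not reach 2-fold. Of the 9 listed genes 7 had at least 10 reads and 0 were called, beside 1.52% of all genes tested, with a median difference of 0.44 on the log2 scale.

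**Figure D5:**
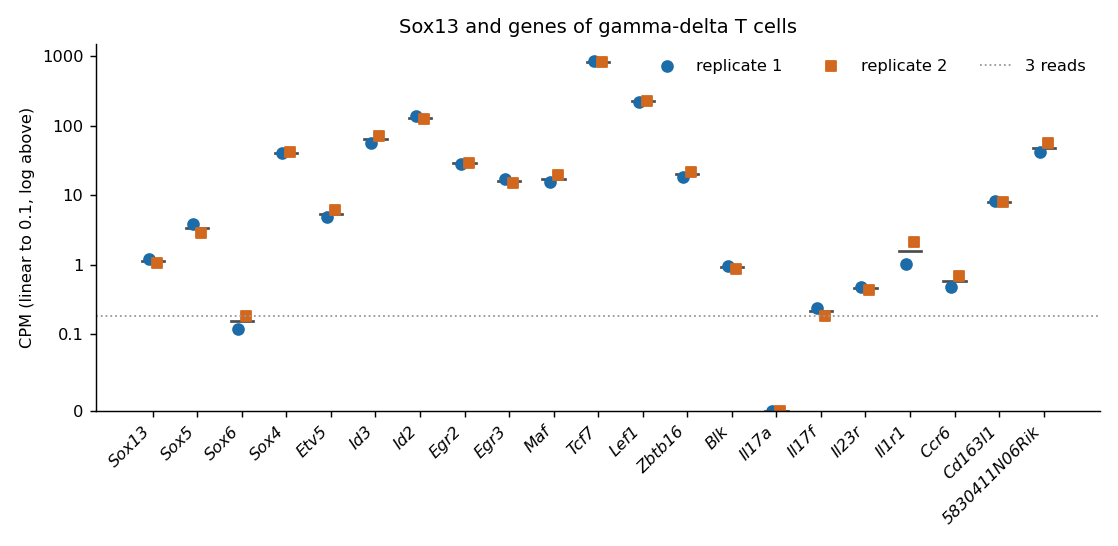
CPM (axis linear to 0.1 and logarithmic above) of Sox13, its SoxD relatives and listed genes of γδ T cells, with a point per library, a line at the mean and a dotted line at the level of 3 reads. Sox13 lies at 1.05 to 1.20 CPM, Tcf7 at 814 to 849, 5830411N06Rik between 41.1 and 55.6, and Il17a at 0.

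The signalling partners of the TCR were abundant. The CD3 genes Cd3e, Cd3d and Cd3g were at 368 to 621 CPM and Cd247, for the ζ chain, at 210 and 211. Fcer1g, for the FcRγ chain that can join the γδ TCR complex and is also made by myeloid cells, was at 9.62 and 8.43 CPM. Ptcra, for the pre-TCR α chain of immature αβ thymocytes, had 2 reads in each library. The immature thymocyte list that holds it summed to 17.3 and 16.1 CPM over 5 genes in replicates 1 and 2. Most of this was Dntt at 224 and 211 reads, followed by Cd24a at 51 and 28. Rag1 had 8 and 19 reads and Rag2 had 4 and 1. The part of immature thymocytes in the levels of the γδ TCR genes and Sox13 was not tested.

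By distance in log2 CPM per kb of exon over the 2 libraries, among 80 other listed genes and segments with reads in both, the genes nearest to each of the 5 were a description of level only. Trgv2 was nearest to both Tcrg-C4 (0.150) and Tcrg-C2 (0.250), with Lef1 and Trgj2 next. Sox5 was nearest to Sox13 (0.273) on this length, though not level with it per kb of coding bases or mean transcript, and Dntt, for terminal transferase, was nearest to Tcrg-C1 (0.162). Tcrg-V5 was nearest to Trdc (0.187), and the epithelial marker Epcam was next (0.314).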

How the data were processed

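The authors made poly(A) libraries with a NEBNext kit, sequenced them as single-end reads of 50 bases, mapped these with TopHat 2.1.1 to mm10 and counted them with HTSeq 0.6.1. The deposited values are raw counts per gene symbol, without normalization, and the annotation and strand setting are not given in the sources used here. Of uniquely aligned reads, 40.6% and 41.2% were on genes, 55.9% in both libraries were on no gene and 3.52% and 2.92% were ambiguous. A further 27736636 and 24451411 alignments in replicates 1 and 2 were not unique. These summary lines were left out of totals and tests.

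CPM were computed from the total on genes, per kb with GENCODE M21 lengths (46294 of 48321 symbols found once), with mean and SD over 2 replicates and Wilson 95% intervals, which, like the floor of 3 reads, reflect the error of counting alone because PCR copies cannot be told from separate molecules here. Libraries were compared by a two-sided exact binomial test (scipy 1.17.1, statsmodels 0.14.6), with 0.5 added to counts for the fold that was called. It was tried on simulated counts that held counting error only, so this trial does not cover spread between mice. Alternatives used edgeR 4.0.16 and DESeq2 1.42.0. Genes named were the 5 genes, V, D and J segments with at least 10 reads, the αβ constant genes, genes of the lists and the 2 nearest list genes; segments below 10 reads, Tcrg-C3, Xist and Ddx3y were named after their values were seen. The members and lists were chosen with earlier results of these data known. Values of 2 list genes are not reported here, though the list counts and sums include them.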

Additional observations from a re-analysis of the deposited data

How the results depend on the processing

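The mean level of each of the 5 genes moved by less than 1 SD with edgeR's TMM library sizes and with DESeq2's size factors. This was nearly fixed in advance, because the factors of the 2 libraries lie on either side of 1 (TMM 0.973 and 1.03) and nearly cancel in a mean. They can change the difference between the libraries, which is covered below. Totals without 393 mitochondrial and ribosomal RNA genes raised all 5 genes, Trdc to 7.25 (within 1 SD), Tcrg-C1 to 6.20, Tcrg-C2 to 22.2, Tcrg-C4 to 24.2 and Sox13 to 1.31 CPM. With the reads of all exons divided by coding bases, the values were 13.6 for Trdc, 10.3 for Tcrg-C1, 38.0 for Tcrg-C2, 36.4 for Tcrg-C4 and 0.609 for Sox13. The ratio of Trdc to Trac was then 0.0135. Per kb of windows found in no other gene Tcrg-C1 was at 9.20, Tcrg-C2 at 29.4 and Tcrg-C4 at 22.2, and with these lengths the ranges of Tcrg-C2 and Tcrg-C4 no longer overlapped. With mean transcript lengths Sox13 was at 0.555 and the ratio of Trdc to Trac was 0.00263. Without either replicate, Trdc was at 5.32 to 7.14 CPM and the ratio at 0.00297 to 0.00432.

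Of all genes, 242 were called between the libraries, 150 of them higher in replicate 2, against 98 of 197 with TMM sizes and 101 of 198 with DESeq2's size factors, which changed the scale only. A minimum of 100 reads left 55 calls among fewer genes tested, and edgeR's exact test with a coefficient of variation of 0.1 made 60, since it allows for spread beyond counting. Under each of these alternatives 0 of the 5 genes were called. With TMM sizes and DESeq2's size factors the 5 log2 differences kept their signs. The other alternatives used the same counts and totals, so the log2 differences could not change there. With each below 2-fold, no call of the 5 was possible in them. At 100 reads Sox13 was not tested. With TMM sizes and DESeq2's size factors, Tcrg-C2 and not Trdc had an unadjusted p under 0.05 by the exact binomial test (p = 0.0105 and 0.0148). No paired analysis was possible because there is 1 group.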
